A study of Homo sapiens with 6 samples.

Results

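The baseline of a lung cancer cell line was set against that of a colon cancer cell line: H1299 cells carrying a GFP plasmid (the GFP-H1299 array) and HCT116 cells with a p53 knockout that had received a control siRNA (the Control-HCT116-p53KO array). These are 2 of the 6 arrays of a study that lowered or raised NRF3, a transcription factor of the cap'n'collar family encoded by NFE2L3. Each of the 6 groups had 1 array, so that no comparison here has a replicate and no p-value is given. The 2 arrays were chosen by their titles, and no measured value entered that choice.

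H1299 is an established line of non-small cell lung carcinoma, and HCT116 is an established line of colorectal carcinoma. HCT116-p53KO cells were transiently transfected with control siRNA and collected after 48 h. They had been grown in DMEM with 10% serum. The GFP-H1299 cells had been transfected with a GFP expression plasmid, selected with G-418 as a stable line and grown in RPMI-1640 with 10% serum. The genotype of H1299 at the p53 gene is not in the labels, although the line is known to make no p53 protein. The other 4 arrays show how a value varied within a line, and they also entered the choice of a gene's probe set and of the genes with the widest differences. They held H1299 cells stably carrying an NRF3 plasmid (NRF3-H1299), HCT116-p53KO cells with NRF3 siRNA (NRF3KD-HCT116-p53KO), and HCT116 cells without the knockout that had control or NRF3 siRNA (Control-HCT116 and NRF3KD-HCT116). They are not replicates of the control arrays. Tissue of origin, individual tumour, knockout, medium, transfection and drug selection differ together between the 2 control arrays and cannot be told apart. The labels do not say whether the H1299 lines or the knockout line are single clones.

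The measurements were log2 probe set intensities from Affymetrix whole-transcript arrays, and 18417 genes had a probe set assigned to exactly 1 gene symbol. The median of these genes was 6.56 on GFP-H1299 and 7.43 on Control-HCT116-p53KO, so levels on the log2 scale were not compared directly. Each gene was instead given its percentile rank among the 18417 genes of its own array, and the difference is stated in percentile points as GFP-H1299 minus Control-HCT116-p53KO. A negative difference therefore means a higher rank on the HCT116-p53KO array. A percentile also reflects how well a gene's probes bind, so the comparisons are of the same gene between arrays, and levels of different genes set side by side are only a rough guide. Where 6 values follow a gene's name, those of the H1299 arrays come in the order GFP-H1299 and NRF3-H1299, and those of the HCT116 family in the order Control-HCT116-p53KO, NRF3KD-HCT116-p53KO, Control-HCT116 and NRF3KD-HCT116. Where 1 value stands against 1 other, they are those of GFP-H1299 and of Control-HCT116-p53KO. Genes are identified by the symbols of the platform annotation.

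A gene was counted as higher on an array where its percentile lay at the 50th or above on at least 1 of the 2 control arrays and differed by 25 points or more. Of the 18417 genes, 569 were higher on GFP-H1299 (3.09%) and 455 were higher on Control-HCT116-p53KO (2.47%). Among the 10340 genes that reached the 50th percentile on at least 1 array, these were 5.5% and 4.4%. The SD of the difference over these genes was 16.5 points. Between arrays of one line it was smaller, at 5.79 points for the 2 H1299 arrays, 4.56 for the 2 HCT116-p53KO arrays, 5.51 for the 2 HCT116 arrays and 4.73 between the HCT116-p53KO and HCT116 arrays with control siRNA. The share of genes 25 points or more apart was 9.9% between the lines, against 0.602%, 0.042%, 0.146% and 0.578% in these 4 pairs, which also differ in treatment or genotype. Of the 569 genes, 546 had both H1299 arrays above all 4 HCT116-family arrays (5.28% of the 10340). Of the 455 genes, 448 had both H1299 arrays below all 4 (4.33%). Such a complete separation in ranks was common, since 31.9% of the 10340 genes lay above and 33.4% below. In the NRF3-H1299 and NRF3KD-HCT116-p53KO arrays, which took no part in the counting, 564 of the 569 genes and 452 of the 455 differed in the same direction, and 410 and 312 of them by 25 points or more. Just inside the threshold lay HMMR at 25.02 points, PRDM6 at 25.05 and RPP38 at -25.08. Just outside it lay ITFG2 at 24.98, CTSL at 24.97 and TSPAN14 at -24.98. The median difference over all 18417 genes was -0.42 points. Counts of list members below are to be read beside the shares of 3.09% and 2.47% of all genes. A member under the 50th percentile on both control arrays could not be counted, whatever its difference.

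**Figure D1:**
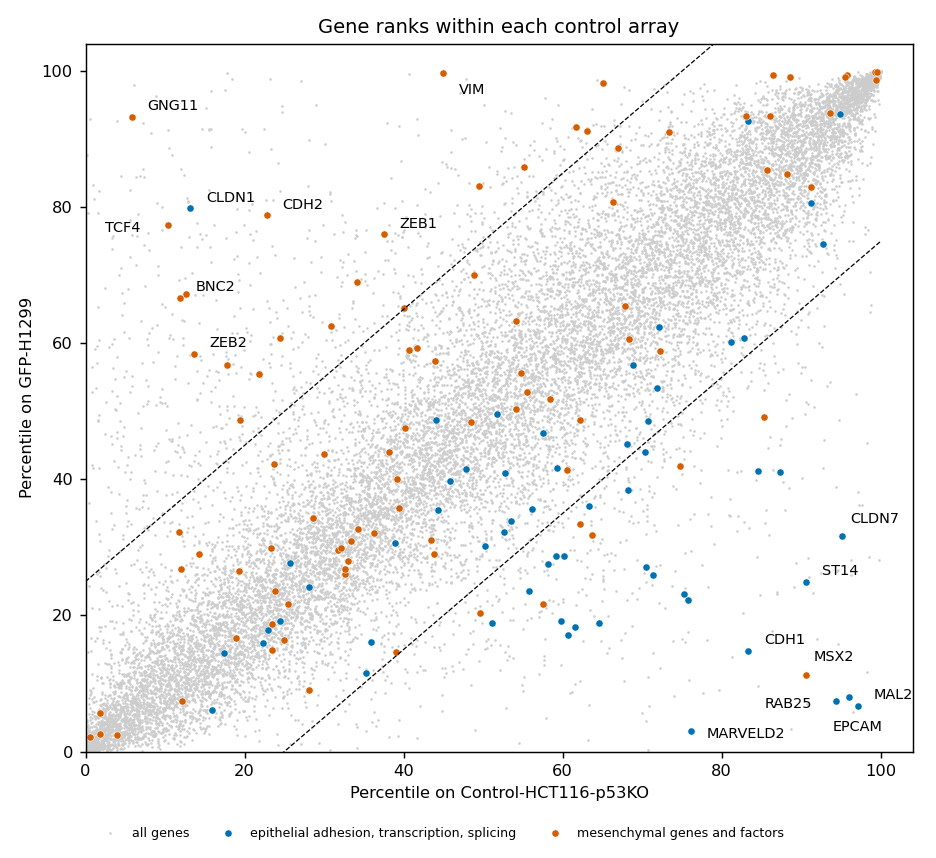
Percentile of each of the 18417 genes within the GFP-H1299 array (vertical axis) against its percentile within the Control-HCT116-p53KO array (horizontal axis), 1 array each. Grey points are all genes, blue points are genes of epithelial adhesion, transcription and splicing, and orange points are mesenchymal genes and factors; the dashed lines mark 25 points. EPCAM, RAB25 and MAL2 lie at the lower right, and VIM, GNG11 and TCF4 at the upper left.

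Epithelial cells are held together by E-cadherin junctions, tight junctions and desmosomes, and they keep an apical and a basal side. Carcinoma lines differ in how much of this program they retain. ZEB1, ZEB2, SNAI1 and SNAI2 are repressors that bind CACCTG-type E-box sequences, among them those in the CDH1 promoter, and cells in which they are active often carry vimentin and N-cadherin. The colon epithelium is specified by the homeodomain factors CDX1 and CDX2 together with HNF4A, and much of the distal lung epithelium by NKX2-1.

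Because many of the adhesion genes described below differed between the lines, the promoters of those with a RefSeq entry (build GRCh38.p14) were searched for CACCTG and CAGGTG, each the reverse complement of the other, in the 250 bases before the annotated start. Of 25 adhesion, transcription and splicing genes that ranked higher on Control-HCT116-p53KO, 15 had a promoter entry, and 8 of these 15 (53.3%) held the hexamer. The share was 17.5% of all 35116 promoter windows of the same length and 16.8% of the 14239 windows of genes on the array. It was 24.9% for the 325 genes higher on Control-HCT116-p53KO and 16.4% for the 440 genes higher on GFP-H1299 that had an entry. A window with 2 or more copies was found for 13.3% of the 15, against 2.53% of all windows. The match is a description of letters and not evidence of binding. No test was made of these shares. CDH1 and EPCAM were among the genes without a promoter entry, so their windows were not searched.

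Shown here are 4 of the 15 windows, read 5′ to 3′ on the strand of the gene and ending 1 base before the start, with the hexamer in capitals: RAB25 (chr1:156060910-156061159, plus strand), MYO5B (chr18:50195148-50195397, minus strand) and LAD1 (chr1:201399325-201399574, minus strand) with 1, 3 and 2 copies, and MARVELD2 (chr5:69414866-69415115, plus strand) with 0 copies as a contrast. They were chosen after the count was known.
RAB25: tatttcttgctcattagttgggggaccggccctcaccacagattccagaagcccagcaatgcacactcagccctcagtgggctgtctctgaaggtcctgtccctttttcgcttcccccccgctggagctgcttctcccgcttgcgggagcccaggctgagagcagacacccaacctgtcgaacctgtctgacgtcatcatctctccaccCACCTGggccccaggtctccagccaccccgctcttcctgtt
MYO5B: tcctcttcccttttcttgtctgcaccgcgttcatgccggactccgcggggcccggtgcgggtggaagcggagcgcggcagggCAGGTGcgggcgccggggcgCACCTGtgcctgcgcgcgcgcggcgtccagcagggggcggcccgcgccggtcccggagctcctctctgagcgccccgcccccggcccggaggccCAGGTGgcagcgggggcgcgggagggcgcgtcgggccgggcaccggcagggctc
LAD1: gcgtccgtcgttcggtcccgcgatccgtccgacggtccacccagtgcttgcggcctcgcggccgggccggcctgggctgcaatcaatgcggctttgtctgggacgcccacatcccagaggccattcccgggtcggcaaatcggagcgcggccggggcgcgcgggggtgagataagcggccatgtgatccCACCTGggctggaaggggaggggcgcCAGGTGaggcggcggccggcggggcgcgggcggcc
MARVELD2: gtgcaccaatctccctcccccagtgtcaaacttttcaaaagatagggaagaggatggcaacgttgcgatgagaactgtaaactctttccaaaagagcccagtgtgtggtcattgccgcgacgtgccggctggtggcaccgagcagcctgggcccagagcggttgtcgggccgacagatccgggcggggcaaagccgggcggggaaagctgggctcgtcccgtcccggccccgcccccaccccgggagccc
The RAB25 copy begins 41 bases before the start. Those of MYO5B begin 168, 148 and 54 bases before it, and those of LAD1 61 and 35 bases before it. MARVELD2, whose window lacks the hexamer, differed by -73.1 points.

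The tissue of each line was first compared with its markers. As a measure of the percentile at which a silent gene can lie, 44 markers of liver, stomach, blood, melanocytes and glia had a median of 19.5 on GFP-H1299 and 25.3 on Control-HCT116-p53KO. Their 90th percentile point was 45.5 and 43.6. In RNA from whole cultures, fewer cells with a transcript and less of it per cell cannot be told apart.

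The 42 intestinal effector genes measured encode brush border, mucus and transport proteins of the gut. Their median percentile was 22.5 on GFP-H1299 and 24.6 on Control-HCT116-p53KO. Only 5 of them reached the 50th percentile on at least 1 control array and could be counted. Of these 5, 0 were higher on either array, against 5.5% and 4.4% of all genes past that filter, so the count says little. VIL1, which bundles actin in the brush border, lay at 30.8 and 27.3 on the H1299 arrays and at 25.7, 24.2, 25.3 and 23.1 on the HCT116-family arrays. CDH17, the cadherin of the intestine, lay at 4.97 and 4.48 against 9.02, 6.41, 6.36 and 9.06. LGALS4, a gut lectin, lay at 40.7 and 38.9 against 39.2, 38.0, 36.8 and 41.0. All 3 therefore stayed within the range of markers of unrelated tissues on all 6 arrays. CA2, a carbonic anhydrase, and SLC12A2, a chloride cotransporter, lay at 79.3 against 79.7 and 71.4 against 83.3.

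By their median, lung markers did not rank higher on the lung array. Their median over 29 measured genes was 35.2 on GFP-H1299 and 35.6 on Control-HCT116-p53KO, and 1 of them was higher on GFP-H1299. NKX2-1, the lineage factor of the lung epithelium, lay at 21.5 and 24.7 on the H1299 arrays and at 22.9, 23.2, 20.5 and 21.4 on the HCT116-family arrays. The surfactant protein genes were similarly placed, SFTPB at 28.3 against 24.7 and SFTPC at 33.97 against 25.1. These values overlap those of the unrelated markers, within the limits of comparing different probes. The gene that was higher was ABCA3, which transports lipid into the lamellar bodies of alveolar type 2 cells, at 79.8 and 75.8 against 38.9, 48.4, 42.2 and 52.0. ETV5, a factor active in alveolar type 2 cells and in many RAS-driven lines, lay at 93.2 against 85.7.

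H1299 is also known for neuroendocrine traits, and 26 genes of that program were examined. Of these, 6 reached the 50th percentile on at least 1 control array and could be counted. Only UCHL1, the deubiquitinase also known as a neuronal marker, was higher, at 98.9 and 98.8 on the H1299 arrays against 23.2, 24.5, 20.7 and 22.5. Both H1299 values lay near the top of their arrays and all 4 others in the range of the unrelated markers. The lineage factor INSM1 lay at 53.1 against 56.8. The granule proteins differed by array as well as by line, with CHGA at 13.6 and 17.7 against 22.6, 23.4, 22.8 and 21.3 and CHGB at 45.6 and 28.0 against 10.7, 13.9, 15.5 and 13.5. CHGB did not reach the 50th percentile on any array.

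**Figure D2:**
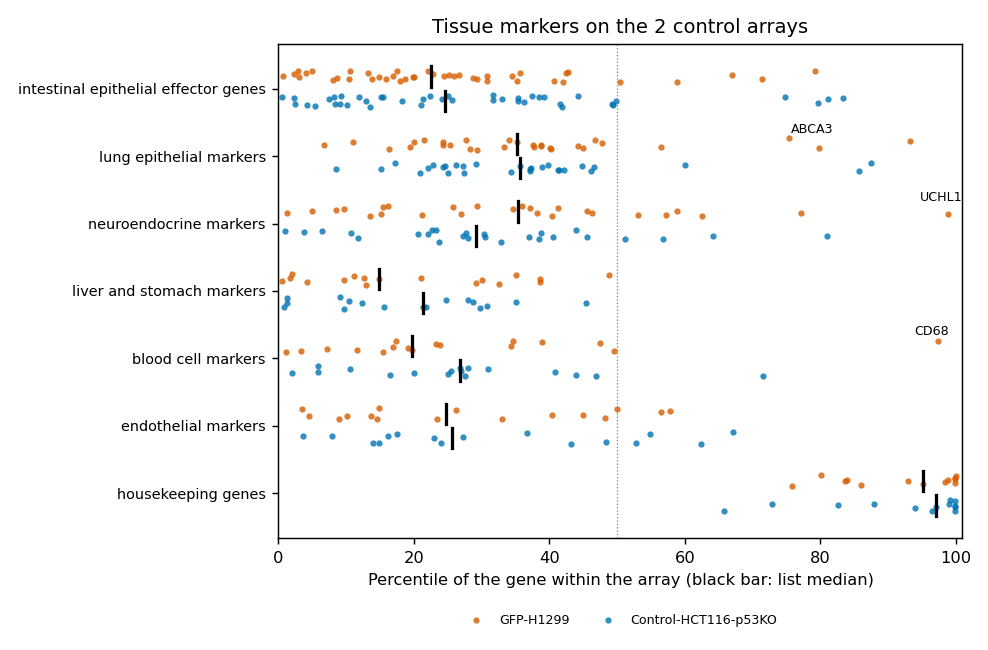
Percentile of each member of the tissue lists on GFP-H1299 (orange points) and Control-HCT116-p53KO (blue points), 1 array each, spread vertically at random within a row, with the list median as a short black line, the 50th percentile dotted and the members that passed 25 points named. The intestinal medians are 22.5 and 24.6 and the lung medians 35.2 and 35.6, with liver and stomach markers at 14.9 and 21.3 and housekeeping genes at 95.2 and 97.0.

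Several colon transcription factors passed the threshold, mostly toward the colon line. Of 25 measured, 5 were higher on Control-HCT116-p53KO (against 2.47% of all genes) and 1 on GFP-H1299, with a list median of -3.45 points. The median was -7.85 points with Control-HCT116 in place of the knockout line and -18.6 over the members past the filter, and the mean of the list was -9.29. The filter keeps members that are high on 1 array only, which can by itself widen such a median. Of the 12 members past it, 10 reached the 50th percentile on Control-HCT116-p53KO and 7 on GFP-H1299. CDX2 lay at 53.2 and 52.3 on the H1299 arrays and at 69.5, 70.9, 66.3 and 69.1 on the HCT116-family arrays, a difference of -16.3 points that did not reach the threshold although the arrays did not overlap. CDX1 was slightly the other way, at 55.4 and 57.0 against 48.0, 46.6, 46.4 and 50.3, and HNF4A is not analysed here. Both CDX genes were thus above the middle of the distribution on GFP-H1299, a lung line.

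The 5 factors were NR5A2, PPARG, ELF3, TFCP2L1 and KLF4. NR5A2, a nuclear receptor of crypt cells, lay at 16.1 and 19.8 against 75.3, 83.8, 38.6 and 34.2. PPARG, the receptor that drives lipid storage and enterocyte maturation, lay at 23.8 and 46.3 against 65.2, 63.5, 89.0 and 88.9. ELF3, an epithelial ETS factor, lay at 19.1 and 22.2 against 59.8, 45.4, 80.3 and 62.6. Their rank moved within each line too: with NRF3-H1299 in place of GFP-H1299 the PPARG difference was -18.9 points, and with Control-HCT116 in place of the knockout line the NR5A2 difference was -22.5, both under the threshold. KLF4, a factor of goblet cells, lay at 39.6 and 61.5 against 68.4, 63.8, 69.5 and 75.1 and differed by -6.92 points with NRF3-H1299. TFCP2L1, an epithelial factor, lay at 25.4 and 24.7 against 63.4, 58.9, 58.4 and 55.2. VDR, the vitamin D receptor, was the gene higher on GFP-H1299, at 87.1 and 79.4 against 55.1, 66.4, 56.0 and 69.3, and its difference was 24.3 points with NRF3-H1299 and 20.7 points with NRF3KD-HCT116-p53KO.

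Genes of epithelial adhesion and polarity ranked lower in H1299 more often than genes at large. Of 45 measured, 19 (42.2%) were higher on Control-HCT116-p53KO and 1 on GFP-H1299, against 2.47% and 3.09% of all genes. The list median was -20.4 points, with median percentiles of 35.7 and 68.1. In all 19, both H1299 arrays lay below all 4 HCT116-family arrays, as they did in 448 of all 455 genes counted on that side.

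EPCAM, the adhesion molecule of simple epithelia, lay at 7.99 and 5.84 on the H1299 arrays and at 96.0, 96.4, 97.4 and 95.8 on the HCT116-family arrays, a difference of -88.0 points. CDH1, which encodes E-cadherin, lay at 14.7 and 17.4 against 83.3, 75.8, 89.9 and 83.1, a difference of -68.6 points. In both genes the H1299 values fell within the range of markers of unrelated tissues. After quantile normalization of the arrays, the differences were -6.37 and -4.21 on the log2 scale.

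Several of the others carry membrane and vesicles to the apical side. MAL2, needed for transcytosis to the apical membrane, lay at 6.66 and 6.38 against 97.2, 98.2, 99.6 and 99.7. RAB25, a small GTPase of apical recycling endosomes, lay at 7.38 and 11.2 against 94.4, 95.6, 92.9 and 95.1. MYO5B, the motor that moves these endosomes, lay at 26.0 and 26.9 against 71.4, 66.0, 69.3 and 69.0. These 3 were named from the genes past the threshold, so that all 3 ranked low in H1299 was set by that choice. Genes of apical transport were not measured as a list of their own. MARVELD2, which encodes tricellulin of the 3-cell tight junctions, lay at 3.04 and 3.73 against 76.1, 80.9, 72.2 and 77.0, and ST14, the matriptase of the epithelial surface, at 24.9 and 26.8 against 90.6, 88.5, 93.3 and 88.8.

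The claudins, which seal tight junctions, did not move as 1 group. CLDN7 lay at 31.6 and 39.1 on the H1299 arrays and at 95.2, 95.2, 94.8 and 95.4 on the HCT116-family arrays, and CLDN4 at 23.2 and 16.6 against 75.3, 61.1, 85.9 and 84.2. CLDN3 lay at 56.8 and 54.4 against 68.9, 63.7, 73.2 and 74.6, a difference of -12.05 points that did not pass the threshold. CLDN1 was the 1 adhesion gene higher on GFP-H1299, at 79.8 and 89.6 against 13.2, 11.3, 10.6 and 13.8. The claudin genes thus differed in both directions, with -63.5 points for CLDN7 and 66.7 for CLDN1. CLDN7 and CLDN1 overlap other genes in RefSeq, ELP5 and CLDN16, neither of which passed the threshold. TJP1, the junctional scaffold ZO-1, lay at 93.7 against 94.8, and its values overlapped between the lines.

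Factors that maintain the epithelial program also ranked lower in H1299. Of 14 epithelial transcription and splicing factors measured, 6 (42.9%) were higher on Control-HCT116-p53KO and 0 on GFP-H1299, with a list median of -22.3 points. GRHL2, a grainyhead factor that activates junction genes, lay at 17.1 and 15.3 against 60.7, 65.5, 65.8 and 68.2. OVOL1, a repressor of ZEB genes, lay at 18.9 and 23.3 against 64.6, 60.4, 64.8 and 58.9. ESRP2 and RBM47, RNA-binding proteins of epithelial splicing, lay at 27.2 against 70.5 and 18.3 against 61.6. ESRP1 is not analysed here. The other 2 were ELF3, given above, and GRHL3, a further grainyhead factor, at 23.6 and 21.7 against 55.7, 40.1, 43.4 and 34.7. The GRHL3 difference was -16.5 points with NRF3KD-HCT116-p53KO and -19.8 points with Control-HCT116, so its call rested on the control array of the knockout line.

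Keratins give epithelial cells their filaments, and desmosomes anchor them. Of 26 genes, 3 (11.5%) were higher on Control-HCT116-p53KO and 0 on GFP-H1299. KRT19 lay at 36.3 and 40.8 against 97.3, 96.2, 97.7 and 97.4, whereas the other simple epithelial keratins were high in both lines, KRT8 at 95.8 against 99.7 and KRT18 at 98.3 against 97.7. JUP, the plakoglobin shared by desmosomes and adherens junctions, lay at 41.7 and 38.9 against 92.8, 93.2, 95.4 and 96.4. DSP, the desmoplakin that anchors keratin, lay at 47.8 and 76.8 against 88.0, 87.1, 85.9 and 87.6, and on NRF3-H1299 its difference was -11.3 points and no longer past the threshold. PKP3, a desmosomal plaque protein, lay at 47.8 against 62.5.

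Repressors of the epithelial program differed in both directions. Of 27 transcription factors of mesenchymal transition, 5 (18.5%) were higher on GFP-H1299 and 5 on Control-HCT116-p53KO, with a list median of -2.59 points that turned to 1.67 with NRF3KD-HCT116-p53KO. ZEB1 lay at 76.0 and 75.05 on the H1299 arrays and at 37.5, 40.5, 45.8 and 40.1 on the HCT116-family arrays, and ZEB2 at 58.4 and 60.3 against 13.6, 12.01, 16.5 and 15.2. TCF4, the E-box factor E2-2, lay at 77.4 and 77.9 against 10.4, 8.83, 10.5 and 11.6. In these 3, both H1299 arrays lay above all 4 HCT116-family arrays. SNAI1 lay the other way, at 21.7 and 24.0 against 57.5, 54.9, 52.0 and 52.2, and SNAI2 at 20.4 and 15.9 against 49.6, 39.3, 47.5 and 33.6, the latter under the 50th percentile on both control arrays. RUNX2, a bone lineage factor, lay at 69.0 and 72.8 against 34.2, 32.4, 43.7 and 48.0, and its overlapping neighbour SUPT3H was also higher, at 73.0 against 45.9. PRRX1 lay at 56.8 and 27.7 against 17.8, 17.8, 18.5 and 15.4, so that its call rested on the GFP-H1299 array and its difference was 9.95 points with NRF3-H1299.

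The other factors higher on Control-HCT116-p53KO were MSX2 and MSX1, homeobox genes induced by BMP, TBX3, a T-box factor, and GLI2, an effector of hedgehog signalling. MSX2 lay at 11.3 and 8.76 against 90.6, 77.0, 85.1 and 70.6, and MSX1 at 49.1 and 54.6 against 85.3, 74.4, 76.8 and 74.7. TBX3 lay at 33.5 against 62.2 and GLI2 at 31.8 against 63.7. With NRF3KD-HCT116-p53KO the TBX3 difference was -21.4 points. The MSX2 difference of -79.3 points was among the 15 largest on the HCT116-p53KO side of all genes.

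Of 66 mesenchymal and matrix genes, 14 (21.2%) were higher on GFP-H1299 and 1 on Control-HCT116-p53KO, with a list median of 3.67 points and median percentiles of 58.9 and 39.8. VIM, the mesenchymal intermediate filament, lay at 99.7 and 99.4 on the H1299 arrays and at 45.0, 46.6, 43.7 and 40.2 on the HCT116-family arrays, a difference of 54.7 points and of 6.11 on the log2 scale after quantile normalization. CDH2, which encodes N-cadherin, lay at 78.8 and 89.0 against 22.8, 22.5, 20.8 and 20.5. In both, the arrays of the 2 lines lay far apart. FBN1, the microfibril protein fibrillin, lay at 67.3 and 65.1 against 12.6, 12.2, 10.2 and 13.2, BNC2, a fibroblast zinc finger factor, at 66.7 and 66.5 against 11.9, 14.1, 12.9 and 11.7, and GNG11, a G protein subunit, at 93.2 and 92.4 against 5.80, 5.24, 6.72 and 7.92.

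Many matrix genes did not share this difference. FN1, which encodes fibronectin, lay at 59.3 and 46.6 against 41.7, 33.7, 42.7 and 40.4, a difference of 17.6 points. CAV1, TIMP1, LGALS1 and TPM2 were high in both lines, with differences of -0.72, 0.57, 0.27 and 0.22 points. SERPINE2, a protease inhibitor, was the 1 gene of the list higher on Control-HCT116-p53KO, at 42.0 and 54.4 against 74.8, 79.2, 78.7 and 88.7, and its difference was -20.4 points with NRF3-H1299. NT5E, the ecto-enzyme CD73, lay at 98.2 and 97.2 against 65.0, 55.1, 73.7 and 75.9, and differed by 24.6 points from Control-HCT116.

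**Figure D3:**
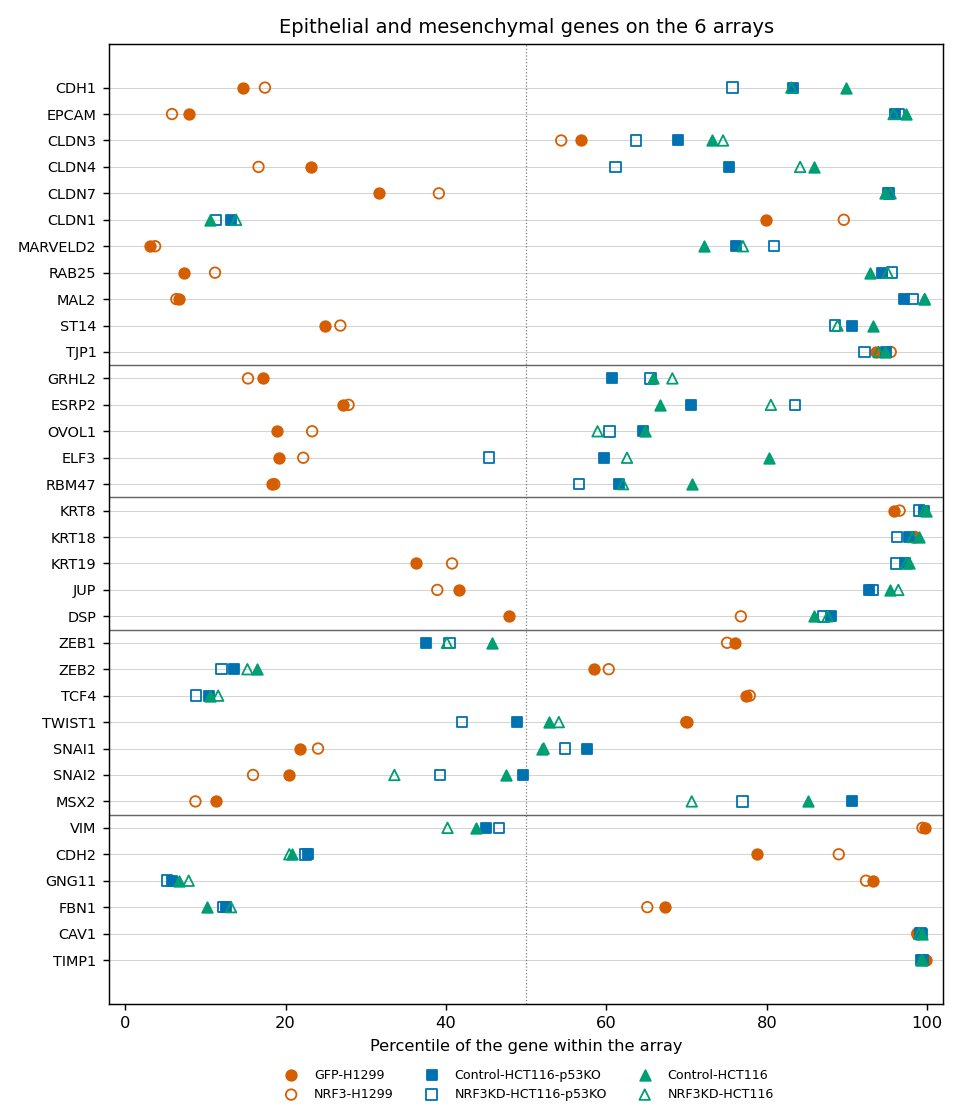
Percentile on each of the 6 arrays (horizontal axis) for named epithelial and mesenchymal genes (rows), with filled symbols for the 3 control arrays and open symbols for NRF3-H1299 and the NRF3 siRNA arrays. For EPCAM, CDH1, VIM and ZEB2 the 2 H1299 arrays lie on one side of all 4 HCT116-family arrays; the symbols of 1 line also spread among themselves, as for DSP.

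HOX genes record position along the body axis, and 27 of them were measured, while the other 12 are not analysed here. Of the 27, 5 (18.5%) were higher on GFP-H1299 and 0 on Control-HCT116-p53KO, against 3.09% and 2.47% of all genes. As a family they differed little, with a list median of 1.59 points, and 17 members lay above 0 and 10 below. The median was 0.29 points with Control-HCT116 in place of the knockout line. HOXB2 lay at 94.9 and 93.5 on the H1299 arrays and at 24.8, 23.3, 27.4 and 24.5 on the HCT116-family arrays, the widest difference of the family at 70.2 points. HOXC8 lay at 78.5 and 78.3 against 40.4, 42.6, 38.6 and 41.2, and HOXC10 at 68.4 and 64.0 against 32.2, 30.0, 24.4 and 29.7. For these 3, the values of the 4 HCT116-family arrays were close together.

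HOXB3 and HOXB4 overlap in the annotation, so signal of one may enter the other. HOXB3 lay at 71.2 and 71.99 against 32.2, 32.4, 54.4 and 43.5, and HOXB4 at 76.5 and 76.0 against 49.0, 48.2, 59.7 and 65.0. Both ranked higher in HCT116 than in the knockout line, and against Control-HCT116 each differed by 16.8 points, under the threshold. Other HOX genes did not pass the threshold, with HOXB9 at 76.0 against 53.2, HOXD9 at 64.9 against 46.9, HOXC9 at 59.99 against 59.0 and HOXD13 at 52.1 against 45.1. Of the HOXA genes, HOXA2 lay at 31.0 against 20.1.

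**Figure D4:**
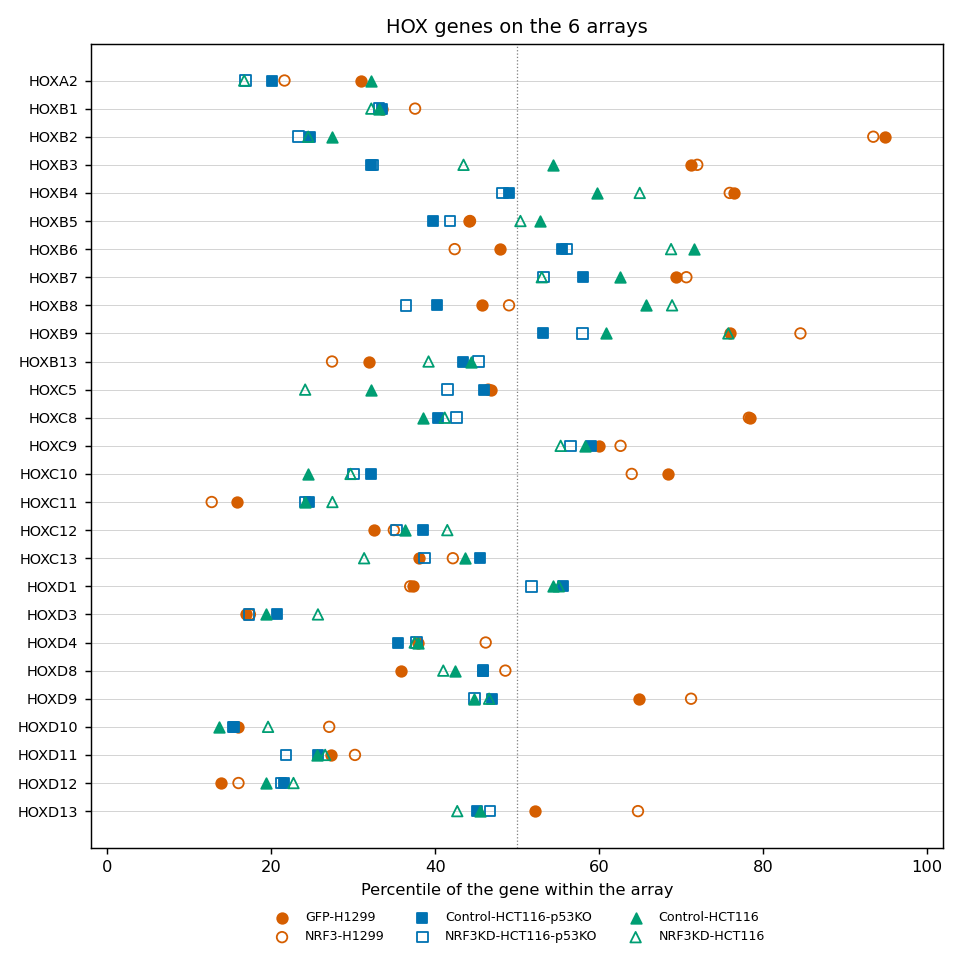
Percentile of each of the 27 measured HOX genes (rows) on each of the 6 arrays (horizontal axis); circles are H1299, squares HCT116-p53KO and triangles HCT116, filled for controls and open for the NRF3 arrays, with the 50th percentile dotted. HOXB2, HOXC8 and HOXC10 on the H1299 arrays stand apart from all 4 HCT116-family arrays, whereas HOXB3 and HOXB4 also differ between HCT116 and its knockout line.

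HCT116 is known for a stabilising change in beta-catenin, the WNT effector, and WNT output genes were examined next. Of 31 target and feedback genes, 5 (16.1%) were higher on Control-HCT116-p53KO and 1 on GFP-H1299, against 2.47% and 3.09% of all genes. The list median was -5.40 points. It was -15.8 over the members past the filter, which keeps those high on 1 array only. AXIN2, the negative feedback scaffold, lay at 32.4 and 39.0 against 71.7, 69.7, 71.0 and 63.0, and NKD1, a second feedback inhibitor, at 33.3 and 32.0 against 63.6, 59.0, 59.95 and 57.0. DKK1, a secreted WNT antagonist, lay at 28.2 and 71.7 against 99.7, 99.7, 97.8 and 99.3. AXIN2 and NKD1 were alike on both H1299 arrays, whereas DKK1 ranked far higher on NRF3-H1299 than on GFP-H1299. BMP4 and BAMBI, which belong to BMP signalling as well, lay at 28.6 against 98.6 and 16.3 against 50.3, the latter with a difference of -21.7 points on NRF3-H1299.

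The WNT list held genes with other patterns too. LEF1, the transcription factor that binds beta-catenin, was higher on GFP-H1299, at 81.0 and 88.7 against 12.9, 14.1, 11.5 and 11.8. LGR5, the crypt stem cell receptor, lay at 7.22 and 6.58 against 5.73, 8.25, 7.49 and 4.70, near the bottom of all 6 arrays. RNF43 and ZNRF3, the ligases that remove WNT receptors, lay at 34.5 against 54.4 and 52.0 against 74.7, under the threshold. Of 53 ligands, receptors and core components, 2 were higher on Control-HCT116-p53KO, WNT16 at 37.5 against 78.7 and ROR2 at 37.4 against 71.3, and 0 on GFP-H1299. CTNNB1 lay at 98.2 against 98.7, TCF7L2 at 75.4 against 91.0 and APC at 36.0 against 52.8.

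In the TGF-beta and BMP pathway, 3 of 38 genes (7.89%) were higher on Control-HCT116-p53KO and 1 (2.63%) on GFP-H1299, against 2.47% and 3.09% of all genes. BMP7, a ligand, lay at 10.9 and 11.3 against 55.2, 52.2, 54.8 and 50.2, and ID2, a BMP target, at 51.4 and 54.2 against 90.7, 76.1, 97.2 and 91.0. The ID2 difference was -24.8 points with NRF3KD-HCT116-p53KO. LTBP2, a binding protein of the matrix, was higher on GFP-H1299 at 79.9 and 70.2 against 36.7, 38.0, 38.9 and 39.1. The receptor genes TGFBR2, TGFBR1 and TGFBR3 lay at 80.7 against 66.2, 74.8 against 59.3 and 76.1 against 65.3, and the TGFBR2 values of the 2 lines overlapped, since Control-HCT116 lay at 91.0. The TGFBR2 difference between the 2 control arrays was smaller than that between HCT116 and its knockout line.

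Few growth factor receptors passed the threshold, and those that did ranked higher in the colon line. Of 30 receptor genes, 3 (10.0%) were higher on Control-HCT116-p53KO and 0 on GFP-H1299, against 2.47% and 3.09% of all genes. The list median was -4.66 points. EGFR, ERBB2 and ERBB3 lay at 74.8 against 76.2, 60.3 against 64.7 and 32.2 against 52.6, and MET at 86.0 against 89.1. FGFR2 lay at 15.2 and 16.6 against 65.8, 63.3, 65.2 and 65.7, MST1R, the receptor RON, at 24.0 and 25.8 against 62.4, 72.04, 63.0 and 75.9, and LIFR at 12.2 and 39.2 against 72.3, 63.1, 59.5 and 48.6. FGFR2 was steady within each line, while LIFR was not.

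Ligands and outputs of the MAPK cascade went both ways, with 3 of 30 (10.0%) higher on each array, against 3.09% and 2.47% of all genes. EREG, an EGFR ligand of the colon, lay at 26.0 and 27.8 against 96.3, 97.5, 98.8 and 99.3, a difference of -70.3 points. FGF5 lay the other way, at 86.5 and 85.1 against 24.2, 21.6, 21.2 and 26.2. PDGF ligands were divided, with PDGFC at 66.3 against 33.6 and PDGFA at 51.5 against 80.0. The PDGFA difference was -4.67 points against Control-HCT116. Among the feedback genes, SPRY2 lay at 94.1 and 95.1 against 52.8, 51.8, 54.8 and 53.7 and DUSP4 at 22.3 and 17.6 against 58.2, 49.4, 72.2 and 75.7. These 2 inhibitors of the cascade thus differed in opposite directions, and DUSP6 lay at 69.8 against 89.6. TGFA, another EGFR ligand, lay at 47.2 against 62.5.

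Integrins bind cells to the matrix as pairs of chains. Of 19 chains, 2 (10.5%) were higher on Control-HCT116-p53KO and 1 (5.26%) on GFP-H1299, against 2.47% and 3.09% of all genes. These shares rest on 1 or 2 genes. ITGB4, the hemidesmosome chain, lay at 46.2 and 40.7 against 86.1, 82.8, 93.6 and 95.3, and ITGA2, of a collagen receptor, at 54.3 and 54.4 against 93.6, 74.3, 90.0 and 82.6. ITGA4, of a fibronectin and VCAM receptor, lay at 64.0 and 59.9 against 18.7, 15.7, 18.5 and 14.2. ITGA3 lay at 96.5 against 90.2. The ITGA2 difference was -20.04 points with NRF3KD-HCT116-p53KO.

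Among 30 targets of YAP and TAZ, coactivators that respond to cell shape, 4 (13.3%) were higher on GFP-H1299 and 1 on Control-HCT116-p53KO. CCN1 lay at 91.3 and 97.8 against 63.0, 64.1, 45.6 and 57.6, and CCN2 at 85.8 and 96.7 against 55.2, 46.4, 50.5 and 49.5. Both matricellular genes ranked higher still on NRF3-H1299. With percentiles taken among all probe sets their differences were 22.1 and 24.4 points, under the threshold. ANKRD1 lay at 15.7 and 87.2 against 11.9 to 14.8 on the HCT116-family arrays, so it was low on GFP-H1299 and high only on the other H1299 array. The fourth gene higher on GFP-H1299, after NT5E, was RBMS3, an RNA-binding protein, at 54.8 against 11.2. TNS1, the tensin of focal adhesions, was the gene higher on Control-HCT116-p53KO, at 22.2 against 51.8, with a difference of -23.4 points against NRF3KD-HCT116-p53KO. YAP1 itself lay at 91.6 against 92.4, and the receptor kinase AXL at 99.5 against 86.4.

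Target genes of p53 were set side by side, since one line carries the knockout and the other is known to lack the protein. The deleted gene itself is not analysed here. Of 38 targets, 6 (15.8%) were higher on Control-HCT116-p53KO and 1 on GFP-H1299, with a list median of -7.84 points. That median was -3.61 with NRF3-H1299 and -3.91 with NRF3KD-HCT116-p53KO. CDKN1A, the cell cycle inhibitor p21, lay at 62.3 and 68.5 against 73.0, 60.3, 87.2 and 89.5, and MDM2, the ligase of p53, at 83.6 and 87.0 against 91.7, 90.8, 95.5 and 95.6. Neither differed by 25 points, and in both the highest values were those of the 2 HCT116 arrays that carry p53. GDF15, a secreted stress factor, lay at 31.8 and 42.0 against 86.0, 68.2, 98.6 and 98.5, and its HCT116 values lay above those of the knockout line.

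The other targets higher on Control-HCT116-p53KO were KITLG, PLK2, PLK3, PPM1D and PHLDA3. KITLG, the KIT ligand, lay at 7.04 and 13.6 against 90.7, 94.0, 96.1 and 96.3, with little change between HCT116 and the knockout line. PPM1D, a phosphatase that limits p53 signalling, lay at 56.5 and 58.0 against 90.1, 89.6, 92.8 and 94.3. PLK2, PLK3 and PHLDA3 differed by -34.3, -31.8 and -26.3 points, and with NRF3-H1299 by -23.5, -15.1 and -20.2 points, under the threshold. FAS, the death receptor, was the 1 target higher on GFP-H1299, at 61.6 and 66.4 against 30.9, 36.7, 61.0 and 67.8. Its difference against Control-HCT116 was 0.59 points, and it overlaps ACTA2 in the annotation. The size of the FAS difference thus held against the knockout line but not against its parent.

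NFE2L3, the gene that the study altered, lay at 78.6 and 96.1 on the H1299 arrays and at 72.1, 45.6, 76.1 and 34.8 on the HCT116-family arrays. The 2 control arrays thus differed by 6.43 points, less than the change on either NRF3 array of the same lines. Of 11 genes of cap'n'collar factors, small MAFs, BACH and KEAP1, 0 were higher on either control array, with NFE2L1 at 89.0 against 87.6 and NFE2L2 at 89.4 against 92.8. The factor and its partners thus differed by less than the threshold between the 2 control arrays.

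Of 31 antioxidant genes of the NRF2 type, 2 (6.45%) were higher on GFP-H1299 and 3 (9.68%) on Control-HCT116-p53KO, against 3.09% and 2.47% of all genes. NQO1, GCLM and GCLC lay at 97.5 against 98.4, 45.9 against 60.4 and 64.5 against 84.3. CBR1, a carbonyl reductase, lay at 73.0 and 69.9 against 23.8, 23.0, 23.9 and 20.9, and AKR1C1, an aldo-keto reductase, at 69.5 and 65.2 against 34.6, 41.5, 39.7 and 48.5. AKR1C1 has near-identical paralogs whose signal the probe set may share. ABCC2, an efflux pump for conjugates, was the other way at 35.5 and 36.9 against 87.9, 94.6, 97.3 and 98.4, and EPHX1, the epoxide hydrolase, lay at 56.3 against 87.7. SLC7A11, the cystine transporter, lay at 54.4 and 83.5 against 83.7, 78.1, 82.2 and 81.6. Its difference was -0.21 points with NRF3-H1299, so its call rested on the GFP-H1299 array.

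Among other detoxifying genes, those past the threshold were mostly higher in the colon line. Of 31 genes of drug and aldehyde metabolism, 5 (16.1%) were higher on Control-HCT116-p53KO and 1 on GFP-H1299, against 2.47% and 3.09% of all genes. CYP24A1, which breaks down active vitamin D, lay at 9.06 and 9.33 against 79.7, 65.1, 93.9 and 86.3, the reverse of its receptor gene VDR. ALDH1A3, which makes retinoic acid, lay at 23.5 and 22.6 against 87.0, 88.2, 95.2 and 96.0, while ALDH1A1 and ALDH1A2 lay at 14.1 against 11.5 and 20.3 against 21.0. CYP2S1, CYP4F11 and ALDH2 differed by -45.1, -45.0 and -30.2 points. GSTA4, which conjugates lipid peroxidation products, was higher on GFP-H1299, at 72.8 and 77.7 against 19.1, 22.2, 18.8 and 23.3.

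Few genes of sterol and glucose metabolism, the cell cycle or mismatch repair passed the threshold. Of 16 cholesterol synthesis genes, 1 was higher on Control-HCT116-p53KO, SC5D, at 57.2 and 77.1 against 89.7, 82.5, 90.5 and 81.9. Its difference was -12.5 points with NRF3-H1299. HMGCS1 and SQLE lay at 70.5 against 78.9 and 96.0 against 85.0. In the list of SREBP2 control and LDL uptake, SREBF2, SREBF1 and SCAP lay at 87.9 against 88.2, 89.5 against 73.0 and 80.9 against 84.4, and 1 of 15 genes was higher on GFP-H1299, the efflux pump ABCA1, at 58.7 and 34.9 against 17.6, 17.97, 20.7 and 21.2. The ABCA1 difference was 17.3 points with NRF3-H1299.

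For glucose, 1 of 23 genes was higher on each array. SLC2A3, the high-affinity transporter GLUT3, lay at 89.3 and 88.6 against 30.1, 24.7, 29.0 and 22.5, whereas SLC2A1 and HK1 lay at 92.5 against 92.9 and 42.8 against 62.5. ALDOC, an aldolase, lay at 40.2 and 32.9 against 90.2, 84.3, 85.2 and 80.9. The 2 lines thus differed in 1 of these transporters and not in the other by this threshold. Of 22 genes of G1 control, 1 was higher on GFP-H1299, CCND2, at 57.2 and 29.5 against 25.7, 26.4, 23.4 and 28.6, and its difference was 3.84 points with NRF3-H1299. CCND1 and CCND3 lay at 91.0 against 98.4 and 86.4 against 91.7. Of 25 genes of G2 and mitosis, 1 was higher on GFP-H1299, HMMR, which lay just inside the threshold and outside it with Control-HCT116 (18.04 points) and NRF3-H1299 (22.0 points), while CCNB1, CCNB2 and CDK1 lay at 95.4 against 95.6, 97.1 against 95.7 and 85.4 against 85.8. Of 13 housekeeping genes and of 10 mismatch repair genes, 0 were higher on either array, with MSH6 at 79.1 against 64.6. The medians of these 7 lists ranged from -0.68 to 2.41 points, and the sign of some turned with another array or setting.

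In innate immunity, CGAS, the sensor of DNA in the cytoplasm, lay at 84.8 and 87.7 on the H1299 arrays and at 12.4, 9.86, 10.2 and 7.79 on the HCT116-family arrays. The adaptor that it signals through, STING1, lay at 47.2 and 48.2 against 49.3, 50.1, 64.0 and 68.4, a difference of -2.18 points between the control arrays. Of 30 genes of antigen presentation and interferon, CGAS was the 1 gene higher on GFP-H1299, and IFITM1, at 16.6 and 18.04 against 50.6, 27.6, 36.0 and 26.2, the 1 gene higher on Control-HCT116-p53KO. The IFITM1 difference was -11.0 and -19.5 points with the arrays NRF3KD-HCT116-p53KO and Control-HCT116. PSMB8, an immunoproteasome subunit, lay at 46.0 and 51.6 against 18.2, 19.9, 16.1 and 16.1, under the 50th percentile on both control arrays. Of 23 NF-kappaB targets and chemokines, 1 was higher on Control-HCT116-p53KO, CXCL16, at 32.4 and 34.2 against 81.9, 84.6, 79.7 and 82.9. CXCL1, CXCL2 and CXCL3 lay at 44.7 against 38.5, 43.6 against 27.6 and 25.5 against 27.4, and these near-identical paralogs may share signal.

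Cancer-testis genes, which are silent in most adult tissue outside the germ line, included genes near the top of one line and near the bottom of the other. Of 24 measured, 3 (12.5%) were higher on GFP-H1299 and 1 on Control-HCT116-p53KO. MAGEA4 lay at 97.2 and 94.6 against 17.6, 16.3, 18.4 and 13.7, CSAG1 at 91.6 and 92.5 against 22.5, 25.1, 25.2 and 23.2 and MAGEA10 at 68.3 and 47.1 against 26.4, 25.3, 22.8 and 28.3. MAGEB2 was the other way, at 5.89 and 10.7 against 96.6, 96.0, 96.8 and 96.8, and its difference of -90.7 points was the widest of all genes on the HCT116-p53KO side. MAGE genes are similar in sequence and their probe sets may share signal. The MAGEA10 difference was 20.7 points with NRF3-H1299.

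Few markers of other cell types passed the threshold. Their list medians were -2.45 points for blood (11 of 17 members below 0), -4.49 for endothelial (13 of 16 below 0) and 0.445 for liver and stomach markers. A list median of a few negative points thus also occurred for unrelated tissues. Of 17 blood markers, 1 was higher on GFP-H1299, the lysosomal protein CD68, at 97.4 and 95.1 against 71.5, 62.7, 61.6 and 61.7, while the leukocyte marker PTPRC lay at 1.06 against 1.99. The CD68 difference was 23.6 points with NRF3-H1299. Most of these markers could not be counted, since they stayed under the 50th percentile on both control arrays. The filter was passed by 1 blood marker, CD68, and by 4 of 16 endothelial markers, of which 0 were higher on either array. It was passed by 0 of 17 liver and stomach markers, so their count was fixed by the filter. The blood, liver and stomach markers are also among the 44 used above as a measure of silent genes.

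The 15 widest differences each way were taken among genes whose lines did not overlap, leaving out olfactory receptors, small RNAs and unnamed loci. On the H1299 side, they ranged from 80.1 to 92.4 points. IL13RA2, a decoy receptor for interleukin 13, lay at 93.0 and 85.9 on the H1299 arrays and at 0.586, 0.934, 0.391 and 0.619 on the HCT116-family arrays. TDRD12, of the germline piRNA pathway, lay at 98.0 and 91.4 against 6.04, 4.50, 4.03 and 6.95, HORMAD1, a meiotic chromosome protein, at 87.7 and 90.2 against 0.250, 0.255, 0.250 and 0.282, and LIN28B, which blocks let-7 maturation, at 83.3 and 87.1 against 0.918, 0.369, 1.06 and 1.10. These are near the lowest and the highest ranks an array can give. TM4SF1, a membrane protein of migrating cells, lay at 99.7 and 99.8 against 17.8, 18.2, 18.02 and 18.1, and INA, a neuronal intermediate filament, at 97.1 and 98.5 against 15.7, 15.1, 16.05 and 17.5. The others of the 15 widest were ZNF667-AS1, PLBD1, GNG11, ZNF626, ELOVL2, PLAC8, TMEM156, H1-5 and ZNF382, the highest of these at 88.8 points.

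On the HCT116-p53KO side, the 15 of this ranking, which left out the olfactory receptor OR51B4 at -72.5 points, included MAGEB2, MAL2, EPCAM, RAB25, KITLG, MSX2, MARVELD2 and DKK1, described above. DNAJC15, a mitochondrial cochaperone, lay at 3.26 and 0.934 against 88.7, 86.1, 91.8 and 86.7, and ACSL5, an acyl-CoA synthetase of the intestine, at 9.67 and 10.0 against 84.5, 85.5, 97.7 and 98.1. LPCAT2, ARHGAP29 and the long noncoding RNA UCA1 differed by -79.4, -82.2 and -75.5 points. That both H1299 arrays lay below all 4 HCT116-family arrays in these 5 was required by the ranking. ANXA3, an annexin, lay at 11.7 and 67.7 against 98.3, 97.6, 98.3 and 97.4, so that its rank on NRF3-H1299 was far above that on GFP-H1299. HBE1, the embryonic beta-like globin, lay at 15.8 and 35.2 against 94.7, 96.6, 91.4 and 96.6, high on each HCT116-family array.

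**Figure D5:**
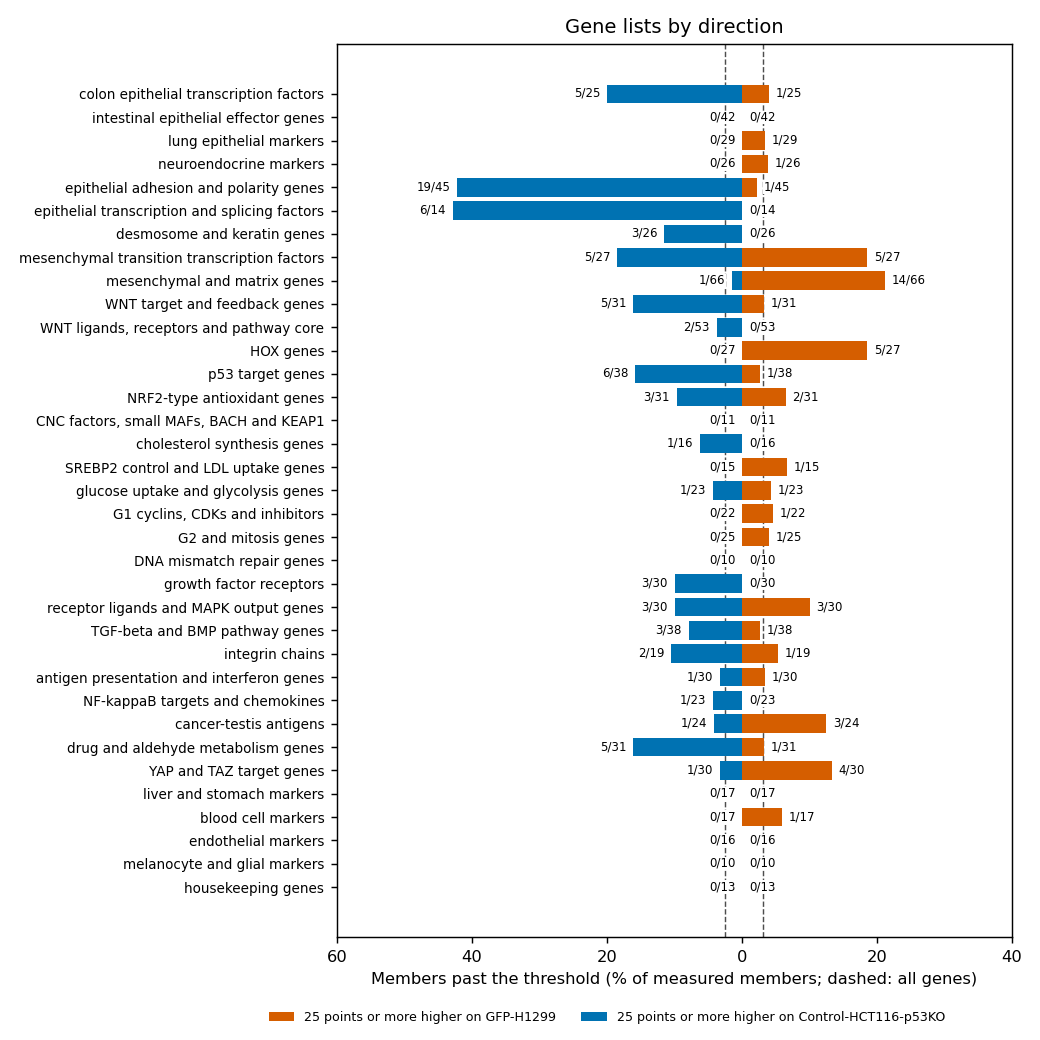
Share of the measured members of each of the 35 gene lists that were 25 points or more higher on GFP-H1299 (orange, to the right) or on Control-HCT116-p53KO (blue, to the left), with the counts printed as members passing over members measured. The dashed lines mark the shares over all 18417 genes, 3.09% and 2.47%; epithelial adhesion genes (19 of 45) and epithelial factors (6 of 14) reach farthest to the left, and mesenchymal and matrix genes (14 of 66) farthest to the right.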

How the data were processed

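Total RNA (100 ng) was labelled with biotin and hybridised to Affymetrix whole-transcript arrays, 1 array for each of 6 groups, per the labels' protocols. For each of 33297 probe sets the authors deposited a log2 intensity computed by RMA. The submitters' processing notes name Affymetrix Expression Console as the tool, with no version. RMA corrects background, equalises arrays and summarises probes. The set of arrays that entered it together is not stated, and the lower median of the H1299 arrays is why ranks were used.

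The platform annotation gave 1 symbol to 19460 probe sets, several to 1754 and none to 12083. Only the first were kept. For the 769 genes with several such probe sets, the one with the highest mean over the 6 arrays was used, which left 18417 genes. Percentile ranks (average ranks for ties) were computed within each array with Python 3.11.15, pandas 2.3.3 and scipy 1.17.1, and figures were drawn with matplotlib 3.10.9. Quantile normalization of the arrays to each other served as an alternative scale, as did other thresholds, filters, probe set rules and arrays. The script was tested on simulated data. With 1 array per group, no test was run and no p-value exists, and depth is not defined for arrays.

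Named genes were the 15 with the widest differences each way among those whose lines did not overlap (without small RNAs, unnamed loci, immunoglobulin and olfactory receptor genes), the first 3 members of each of 35 gene lists, up to 6 members each way past the threshold, NFE2L3 and core members of a list. Genes given with values outside this rule were chosen after their values were seen. These are ETV5, SFTPC, CA2, SLC12A2, KRT8, KRT18, TJP1, CAV1, TIMP1, LGALS1, TPM2, MET, DUSP6, YAP1, AXL, STING1, PSMB8, SUPT3H, CHGA, CHGB, RNF43, ZNRF3 and the genes at the threshold. The members and lists were chosen with earlier results of these data known. Promoters came from RefSeq (GRCh38.p14).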

Additional observations from a re-analysis of the deposited data

How the results depend on the processing

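The counts followed the chosen size. A threshold of 15 points gave 1220 genes higher on GFP-H1299 and 1117 higher on Control-HCT116-p53KO, and one of 35 points gave 340 and 223. A filter at the 75th percentile, which tests fewer genes, gave 260 and 185. A log2 difference of 2 or more after quantile normalization gave 405 and 266. The counts stayed within 1.5 times the reported ones without a filter (714 and 534), with probe sets of a gene averaged (566 and 458), with percentiles among all probe sets (554 and 343), and with another array of either line in place of a control (512 to 561 and 407 to 485). The medians of the adhesion genes, the epithelial factors and the mesenchymal genes kept their sign under every setting tried. Of 35 list medians, 15 changed sign under at least 1 setting. All 15 lay between -2.59 and 0.72 points as reported. They include the intestinal effectors (-1.21, and 0.18 with all probe sets) and the lung markers (-1.40, and 0.06 with all probe sets). The median of the adhesion genes was -26.4 points over the 37 members past the filter, and their mean was -26.8 points. That of the epithelial factors was -42.0 points over the 8 members past the filter and -18.8 points with NRF3-H1299. That of the mesenchymal genes was 4.54 points with all probe sets, 4.27 with Control-HCT116, 3.07 with NRF3-H1299 and 13.2 over the 40 members past the filter, with a mean of 10.2 points. The filter keeps genes that are high on 1 array only, which can by itself widen a median over the members past it. All 8 of those epithelial factors reached the 50th percentile on Control-HCT116-p53KO, and 2 did so on GFP-H1299. The cause of these shifts was not tested. Of 144 named genes past the threshold, all 144 kept their direction with any of 3 other arrays of the lines, with the mean of probe sets and with all probe sets, and 126 to 144 kept a difference of 25 points or more. With all probe sets, 16 fell under it, among them ALDH2 at -24.5, EPHX1 at -24.1, HOXB4 at 22.8, KLF4 at -24.1 and PDGFA at -22.2 points. Intensities of 1 array per group limit every value here, since nothing separates a line from a single hybridisation. No paired analysis was possible because each group has 1 array and the labels number no replicates.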

Other observations

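Groups of genes outside the lists stood out when the counted genes were read by name, and the groups in this section were therefore chosen after their values were seen. Zinc finger genes named ZNF or ZFP, most of which encode DNA-binding repressors, were among them. Of 498 measured, 59 (11.8%) were higher on GFP-H1299, against 3.09% of all genes, and 6 (1.2%) on Control-HCT116-p53KO, against 2.47%. Examples are ZNF850 at 94.7 and 93.7 on the H1299 arrays and 15.2, 12.6, 41.4 and 34.2 on the HCT116-family arrays, ZFP82 at 78.1 and 81.1 against 5.60, 4.98, 4.70 and 4.46 and ZNF570 at 75.5 and 68.1 against 3.31, 4.65, 3.95 and 4.19. In 58 of the 59, both H1299 arrays lay above all 4 HCT116-family arrays, as they did in 546 of all 569 genes counted on that side. Many lay side by side: 35 of the 59 (59.3%) had a next gene on the array that was also higher on GFP-H1299, as did 85 of the other 509 placed genes (16.7%). Members of this family are similar in sequence, and shared signal between their probe sets was not tested.

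A stretch of chromosome 11 went the other way. HBE1 and 5 olfactory receptor genes that follow it within 9 places in gene order were higher on Control-HCT116-p53KO. With GFP-H1299 against Control-HCT116-p53KO, HBE1 lay at 15.8 against 94.7, OR51B4 at 17.2 against 89.6, OR51B2 at 24.2 against 89.2 and OR51I1 at 13.96 against 81.3. The globin genes on the opposite side of HBE1 were not raised with it, HBD at 25.8 against 25.2 and HBB at 19.2 against 25.1. OR51B5 and OR52D1 ranked higher in the knockout line than in its parent, OR51B5 at 77.6 on Control-HCT116-p53KO and 51.1 on Control-HCT116, and OR52D1 at 57.9 and 32.1.

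Of 8 germline and oncofetal RNA genes measured, 4 were higher on GFP-H1299. The group was chosen with TDRD12, HORMAD1 and LIN28B already known to be among the widest differences. Its count is therefore partly set by the choice of members and is no measure of a gene family. Beside TDRD12, HORMAD1 and LIN28B, the 4 genes included IGF2BP1, an RNA-binding protein of the fetus. IGF2BP1 lay at 95.1 and 93.9 on the H1299 arrays and 29.0, 29.0, 30.0 and 24.7 on the HCT116-family arrays. Its paralog IGF2BP3 lay at 76.5 against 93.1, and LIN28A at 22.3 against 26.4. Of 9 let-7 hairpins, whose maturation LIN28B blocks, 3 reached the 50th percentile on at least 1 control array and could be counted. Of these, 0 were higher on either control array, although these probes report hairpin transcripts and not mature miRNA. All 5 miR-200 family hairpins, precursors of miRNAs that target ZEB1 and ZEB2, stayed under the 50th percentile, from 3.81 to 38.5 on GFP-H1299 and from 6.74 to 39.2 on Control-HCT116-p53KO. They could therefore not be counted. Their probes too report hairpin transcripts, so the values do not show the level of the mature miRNAs in either line.

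Of 57 replication-dependent histone genes measured, 7 (12.3%) were higher on GFP-H1299 and 2 (3.51%) on Control-HCT116-p53KO, against 3.09% and 2.47% of all genes, with H3C8 at 88.9 and 90.0 on the H1299 arrays and 15.7, 12.7, 14.6 and 12.99 on the HCT116-family arrays and H3C1 at 23.3 and 23.5 against 91.5, 91.2, 91.7 and 87.9. These genes are near-identical in their coding sequence, and shared signal was not tested. SATB1, a chromatin organiser in no list, lay at 84.5 and 75.1 against 6.91, 7.21, 25.7 and 27.6.

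Some genes that differed between the 2 control arrays also differed between the knockout line and its parent. Of the 1024 genes counted, 26 were also 25 points or more apart between the Control-HCT116-p53KO and Control-HCT116 arrays. Of these, 17 were higher on GFP-H1299 than on Control-HCT116-p53KO and 9 lower. Both comparisons use the Control-HCT116-p53KO array, so an unusual value there enters both. Over all genes tested in the HCT116 pair, 55 of 9511 (0.578%) were that far apart. On Control-HCT116-p53KO, 48 of these were lower and 7 higher, so the split partly follows that of the pair. NRIP1, a nuclear receptor corepressor, lay at 70.0 and 76.7 on the H1299 arrays, at 4.25 and 5.95 on the HCT116-p53KO arrays and at 71.8 and 64.1 on the HCT116 arrays. CASP4, an inflammatory caspase, lay at 65.3 on GFP-H1299, 10.0 on Control-HCT116-p53KO and 54.3 on Control-HCT116. SYTL2, a vesicle tethering protein, lay at 16.2, 73.8 and 26.5 on the same arrays. For NRIP1 and CASP4 the parent line ranked close to H1299, and for SYTL2 the parent was nearer to H1299 than the knockout line was. That Control-HCT116-p53KO lay apart from both other arrays was set by how the 26 genes were picked. For ANO1, DHRS3 and FAM83B the parent lay farther from H1299 than the knockout line did. ANO1 lay at 14.1 on GFP-H1299, 53.3 on Control-HCT116-p53KO and 87.3 on Control-HCT116.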
